A study of Homo sapiens with 6 samples.

Results

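The 40 genes described here belong to the antioxidant response, to the transcription factor NRF2 and its targets, and to ferroptosis. They were taken from the count table by gene symbol, from a list drawn up with earlier results of these data known, and make up 40 of its 20020 genes. RNA-seq had been performed in HCT116, a human colorectal carcinoma cell line, with 3 libraries of CAD-KO2+IR cells and 3 of sgVec+IR cells. CAD-KO2 is a stable knockout line made with 1 guide RNA against human CAD in the lentiCRISPRv2 plasmid, CAD being caspase-activated DNase (gene symbol DFFB), and sgVec is the vector control. Both groups had received ionizing radiation (IR), 8 Gy with harvest at 24 h, so every level given here is that of irradiated cells. Unirradiated cells were not analysed here. Nothing in the labels says whether the libraries of a group came from separate cultures, and p-values then measure only the spread between these libraries.

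NRF2, encoded by NFE2L2, is held in the cytoplasm and marked for degradation by KEAP1. Oxidants modify KEAP1, after which NRF2 enters the nucleus and activates genes for glutathione synthesis, thioredoxin reduction, quinone detoxification, NADPH supply and iron storage. Ferroptosis is a form of cell death driven by iron-dependent peroxidation of membrane lipids. Cystine import by SLC7A11, glutathione and the peroxidase GPX4 hold it back. Ionizing radiation generates reactive oxygen species, which these systems counter.

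The libraries held 14032994 to 19574144 counts. DFFB, the targeted gene, was at 10.03, 10.1 and 12.4 CPM in CAD-KO2+IR replicates 1 to 3 and at 21.8, 22.9 and 20.9 CPM in sgVec+IR replicates 1 to 3, CPM being counts divided by library size after TMM scaling. The groups did not overlap, in the direction of the labels, and the log2 fold change was −1.02 (adjusted p = 0.550 in edgeR, 0.000458 in DESeq2, and −1.11 to −0.92 over 20 alternative fits). A pair of libraries stood apart from the rest. The mean GC content of the counted genes was 46.1% in sgVec+IR replicate 3 and 47.1% in CAD-KO2+IR replicate 2, against 48.9% to 49.6% in the other 4, and 7561 genes had no count in sgVec+IR replicate 3, against 4577 to 5232 elsewhere. Results below are therefore also given without these libraries and with a correction for GC content. The 10 markers of colorectal epithelium summed to 2767 to 3939 CPM in CAD-KO2+IR and 2078 to 4032 CPM in sgVec+IR, with CDX1 at 0 in every library. The 5 leukocyte markers reached at most 1.16 CPM in sum. The 4 endothelial markers summed to 1.0 to 2.22 CPM in CAD-KO2+IR and 4.16 to 6.07 CPM in sgVec+IR, and the 5 fibroblast markers to 25.9 to 39.8 and 10.9 to 48.9 CPM, with DCN and LUM at 0. Whether they bear on the results below was not tested.

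NRF2 binds the antioxidant response element, whose core was searched as TGACNNNGC, or GCNNNGTCA on the opposite strand, in RefSeq promoters of GRCh38.p14 that run from 250 bases before to 50 bases after each annotated start. All of the genes had an entry there except AKR1B10, HMOX1, SLC7A11, SOD1, GSR, GSS, PRDX1, PRDX6 and FTH1. The core was present in 8 of the 31 genes with an entry and in 9 of their 42 promoters (21.4%), against 13.3% of all 35116 promoters. The 8 genes were AIFM2, GCLM, GPX2, KEAP1, ME1, NCOA4, PGD and TXNRD1. Some matches also hold TGACTCA or its complement, the letters of the AP-1 site. A match is a description of letters and not of binding, and the windows of NQO1, GCLC, TFRC and FTL held none. The matches of GCLM and TXNRD1 are printed because these genes were among those with higher counts in CAD-KO2+IR, and those of KEAP1 and AIFM2 because their fold changes were close to 0. Capitals mark the core, each sequence reads 5′ to 3′ along its gene, and no base after the start is shown. The GCLM stretch is chr1:93909431-93909500 on the reverse strand, with the first base of the core 34 bases upstream of the start. TXNRD1 has the core in the promoters of 2 starts, 99 bases upstream of one (chr12:104215644-104215724, forward strand) and 102 bases upstream of the other (chr12:104286894-104286974, forward strand). A further core, 8 bases upstream of the first of these starts, is not printed. The stretches of KEAP1 (chr19:10502772-10502838, 31 bases upstream) and AIFM2 (chr10:70132826-70132883, 22 bases upstream) lie on the reverse strand, and the KEAP1 stretch holds a further core, 54 bases upstream, in lower case.
GCLM: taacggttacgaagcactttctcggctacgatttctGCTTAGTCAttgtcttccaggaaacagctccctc
TXNRD1, first start: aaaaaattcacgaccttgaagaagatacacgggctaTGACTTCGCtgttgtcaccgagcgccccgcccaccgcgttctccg
TXNRD1, second start: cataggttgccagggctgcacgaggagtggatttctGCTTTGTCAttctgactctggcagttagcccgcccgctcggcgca
KEAP1: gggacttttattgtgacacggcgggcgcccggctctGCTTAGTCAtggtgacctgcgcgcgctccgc
AIFM2: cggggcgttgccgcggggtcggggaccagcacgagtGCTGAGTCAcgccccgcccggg

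Of the 40 genes, 38 had enough counts to be tested. In CAD-KO2+IR, 20 of them were higher and 18 lower, with a median log2 fold change of 0.01 and a range from −0.28 (PRDX3) to 1.07 (AKR1C1). Over all 12925 genes tested, 6214 were higher and 6711 lower, with a median of −0.01. No gene of the list was a differentially expressed gene (DEG: at least 1.5-fold, with an adjusted p under 0.05) in edgeR's quasi-likelihood test or in DESeq2, where DEGs were 0.0309% and 0.364% of all genes tested. At an unadjusted p under 0.05 in edgeR, 2 of the 38 were higher, NQO1 and TXNRD1 (5.26%, against 1.08% of all genes tested), and 0 were lower (against 1.76%). In 5 of the 38, all higher, the CPM of the groups did not overlap: NQO1, GCLC, GSR, TXNRD1 and FTL. This is 13.2% of the list, against 5.23% of all genes tested that did not overlap and were higher, and 0 of the list against 5.01% that were lower. Of the 38, 19 were set by rule to be given below with their value in every library, and the other 19 had log2 fold changes from −0.28 to 0.73, 7 above 0 and 12 below, with no unadjusted p under 0.348. In bulk RNA, a change in how many cells express a gene and a change in RNA per cell cannot be told apart.

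**Figure D1:**
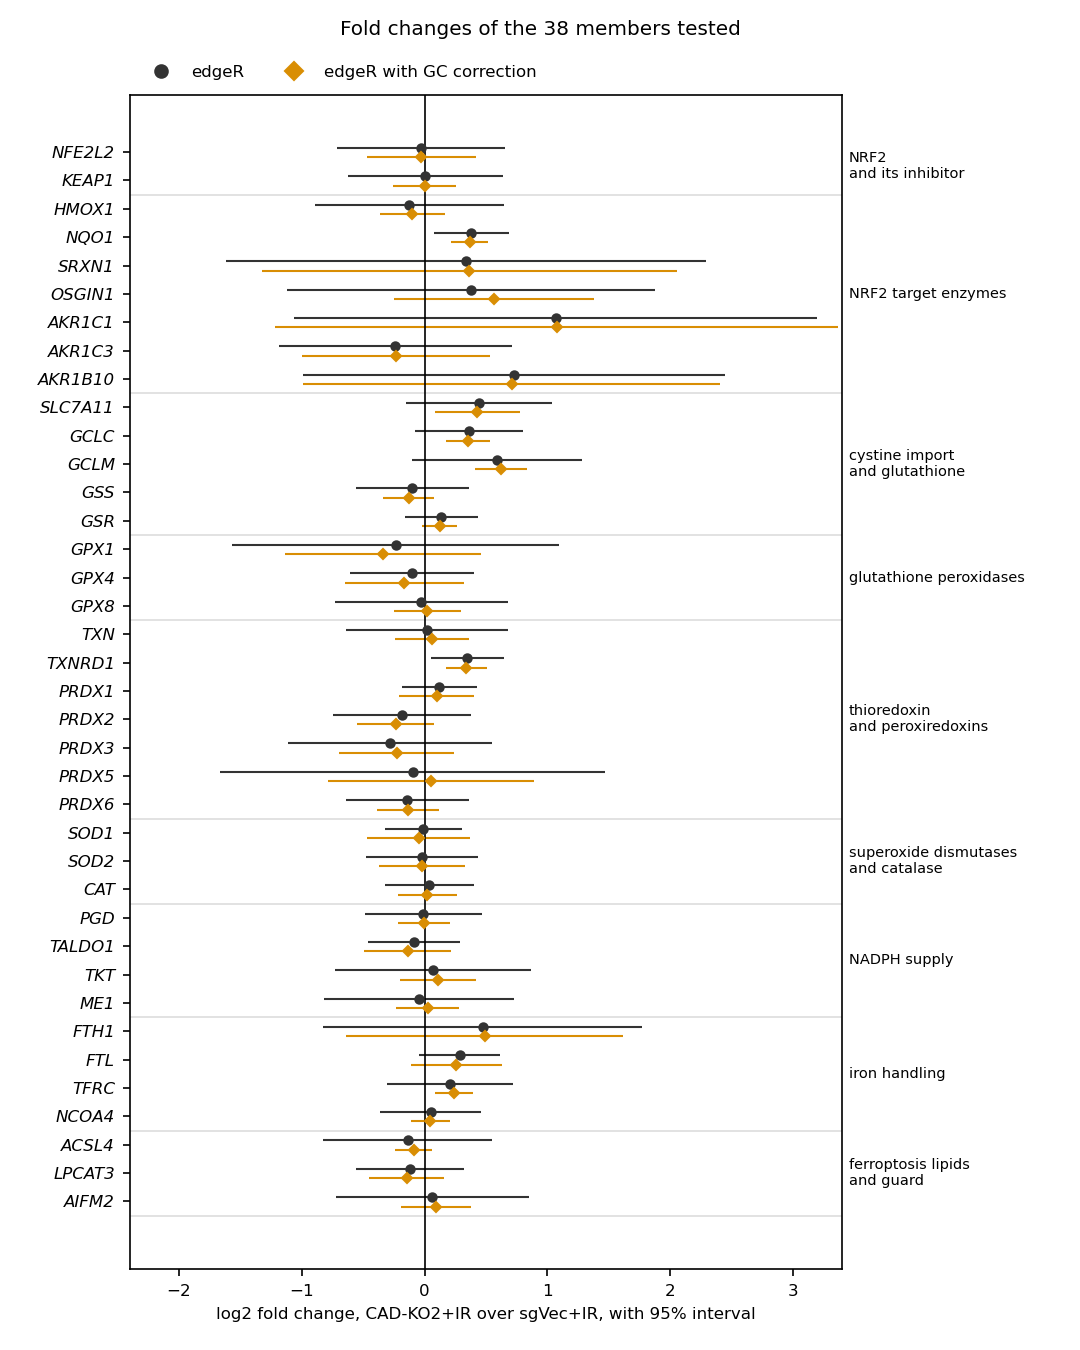
Log2 fold change of the 38 tested genes, CAD-KO2+IR over sgVec+IR, with 95% intervals, grouped by role. Black circles are edgeR and orange diamonds edgeR with GC correction. With GC correction 6 genes had an unadjusted p under 0.05, all higher: NQO1, SLC7A11, GCLC, GCLM, TXNRD1 and TFRC.

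NRF2 itself and its inhibitor had fold changes close to 0, with wide intervals. NFE2L2 was at 102, 148 and 112 CPM in CAD-KO2+IR replicates 1 to 3 and at 100.1, 93.6 and 176 CPM in sgVec+IR replicates 1 to 3. The groups overlapped, each with its highest value in its low-GC library, and the log2 fold change was −0.03 (95% interval −0.72 to 0.66, adjusted p = 1.0, edgeR). KEAP1 was at 132, 93.8 and 116 CPM in CAD-KO2+IR and at 135, 131 and 73.9 CPM in sgVec+IR. Here each group had its lowest value in the low-GC library, and the log2 fold change was 0.01 (95% interval −0.63 to 0.64, adjusted p = 1.0, edgeR). The 2 genes differ in GC content, 45.6% for NFE2L2 and 60.3% for KEAP1.

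Among the NRF2 target enzymes, NQO1 stood out. NQO1, which reduces quinones, lies on chromosome 16 from 69706996 to 69726951 (GRCh38, reverse strand) and was at 322, 360 and 334 CPM in CAD-KO2+IR replicates 1 to 3 and at 253, 256 and 270 CPM in sgVec+IR replicates 1 to 3. Every CAD-KO2+IR library was above every sgVec+IR library, and the low-GC libraries lay near the others of their groups. The means were 339 ± 19.4 and 260 ± 8.99 CPM (SD, n = 3 each). The log2 fold change was 0.38 (standard error 0.130, unadjusted p = 0.0219, adjusted p = 1.0, edgeR), and over 20 alternative fits it lay between 0.34 and 0.43 with adjusted p from 6.31e-07 to 1.0. The adjusted p was under 0.05 in 3 of these fits. Its smallest value came from an edgeR fit with 2 libraries per group, chosen after seeing the data. For TXNRD1, GCLM, GCLC, SLC7A11, FTL and TFRC below, the smallest adjusted p also came from such a fit.

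HMOX1, the heme oxygenase that releases iron from heme, was not higher with NQO1. Its levels were 30.3, 20.1 and 26.2 CPM in CAD-KO2+IR and 32.4, 34.8 and 16.1 CPM in sgVec+IR. The lowest value of each group was again in its low-GC library, and the log2 fold change was −0.12 (95% interval −0.89 to 0.64, adjusted p = 1.0, edgeR). AKR1C1, an aldo-keto reductase, had the largest log2 fold change of the list, 1.07 (standard error 0.910, adjusted p = 1.0, edgeR), on few reads: 35, 6 and 23 counts in CAD-KO2+IR and 13, 12 and 0 in sgVec+IR. The groups overlapped, the log2 fold change was 0.53 without sgVec+IR replicate 3, and 22.2% of the 75-base stretches of its longest transcript also occur in other genes, mostly AKR1C2. SRXN1, AKR1C1 and AKR1B10 had no count in sgVec+IR replicate 3, which at 3 counts allows up to 0.212 CPM (counting error only). SRXN1 (sulfiredoxin, which restores oxidized peroxiredoxins), AKR1B10 and OSGIN1 had log2 fold changes of 0.34, 0.73 and 0.38, which without this library were −0.22, 0.18 and −0.11. For OSGIN1 it held 43 counts, against 313 to 502 in the others. SRXN1 reads are also uncertain because 84.6% of its transcript is shared with the overlapping AL121758.1. AKR1C3 had a log2 fold change of −0.24, and AKR1C2, with 5 to 21 counts in each library, was not tested.

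The genes for cystine import and for glutathione synthesis and reduction were mostly higher in CAD-KO2+IR, 4 of 5, with a median log2 fold change of 0.36. GCLM is the modifier subunit of glutamate-cysteine ligase, the enzyme of the rate-limiting step of glutathione synthesis, and lies on chromosome 1 from 93885205 to 93909456 (reverse strand). It was at 56.9, 84.8 and 57.3 CPM in CAD-KO2+IR replicates 1 to 3 and at 37.2, 33.7 and 61.5 CPM in sgVec+IR replicates 1 to 3. In each group the low-GC library was the highest, and sgVec+IR replicate 3 lay above 2 CAD-KO2+IR libraries, while the other 2 sgVec+IR libraries lay below all 3. The log2 fold change was 0.59 (standard error 0.293, unadjusted p = 0.0846, adjusted p = 1.0, edgeR). It was 0.90 without sgVec+IR replicate 3 (adjusted p = 0.271) and 0.37 without CAD-KO2+IR replicate 2 (adjusted p = 0.991). With GC correction the levels were 66.0, 68.7 and 61.5 CPM in CAD-KO2+IR and 44.7, 41.6 and 41.1 CPM in sgVec+IR. The groups then did not overlap, and GCLM was a DEG in edgeR at a log2 fold change of 0.62 and an adjusted p of 0.0491 (standard error 0.0909). It was the only DEG of the list in that fit, in which 0.325% of all genes tested were DEGs. Over the 20 alternative fits its adjusted p ran from 5.21e-08 to 1.0.

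GCLC, the catalytic subunit of the same ligase, was at 78.7, 100.1 and 81.4 CPM in CAD-KO2+IR and at 64.6, 60.4 and 77.6 CPM in sgVec+IR. The groups did not overlap, although the highest sgVec+IR library lay just below the lowest CAD-KO2+IR library. The log2 fold change was 0.36 (standard error 0.184, unadjusted p = 0.0908, edgeR) and with GC correction 0.35 (unadjusted p = 0.00229, adjusted p = 0.191). SLC7A11, the cystine carrier of the cystine-glutamate exchanger, was at 63.0, 98.9 and 64.4 CPM in CAD-KO2+IR and at 50.6, 47.6 and 68.1 CPM in sgVec+IR. The groups overlapped through sgVec+IR replicate 3. The log2 fold change was 0.45 (standard error 0.251, unadjusted p = 0.119, edgeR), 0.62 without that library and 0.20 without CAD-KO2+IR replicate 2. Over the 20 alternative fits the adjusted p of GCLC ran from 0.000537 to 1.0 and that of SLC7A11 from 0.000685 to 1.0. GSR, which returns oxidized glutathione to its reduced form, was at 262, 269 and 262 CPM in CAD-KO2+IR and at 244, 236 and 242 CPM in sgVec+IR. These groups did not overlap, but the difference was small, 0.14 on the log2 scale (standard error 0.126, unadjusted p = 0.319, edgeR). GSS, which completes glutathione, had a log2 fold change of −0.10 (unadjusted p = 0.622).

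All 3 glutathione peroxidases tested had fold changes below 0 in edgeR with all 6 libraries, none with an unadjusted p under 0.6, and each sign turned in other fits. GPX4, which reduces lipid peroxides and restrains ferroptosis, was at 225, 169 and 203 CPM in CAD-KO2+IR and at 246, 234 and 160 CPM in sgVec+IR. The groups overlapped, with a log2 fold change of −0.10 (95% interval −0.61 to 0.40, adjusted p = 1.0, edgeR). GPX1, the cytosolic peroxidase, was at 24.9, 5.01 and 15.7 CPM in CAD-KO2+IR and at 18.6, 24.6 and 10.4 CPM in sgVec+IR. Its log2 fold change of −0.24 became 0.19 without CAD-KO2+IR replicate 2, and 12.7% of its transcript is shared with GPX1P1. GPX8, a peroxidase of the endoplasmic reticulum, had a log2 fold change of −0.03. For GPX8 it was 0.02 with GC correction, 0.22 with sample weights, 0.34 without sgVec+IR replicate 3 and −0.17 without CAD-KO2+IR replicate 2. GPX2, with at most 11 counts in a library, was not tested.

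In the thioredoxin system, TXNRD1 had a pattern like that of NQO1. TXNRD1 is the cytosolic thioredoxin reductase, on chromosome 12 from 104215779 to 104350305 (forward strand). It was at 855, 961 and 890.04 CPM in CAD-KO2+IR replicates 1 to 3 and at 703, 659 and 763 CPM in sgVec+IR replicates 1 to 3. All CAD-KO2+IR libraries lay above all sgVec+IR libraries, with means of 902 ± 54.3 and 708 ± 52.1 CPM (SD, n = 3 each). The log2 fold change was 0.35 (standard error 0.125, unadjusted p = 0.0268, adjusted p = 1.0, edgeR), and over 20 alternative fits it lay between 0.30 and 0.41 with adjusted p from 3.12e-07 to 1.0. TXN, its substrate thioredoxin, was at 266, 345 and 276 CPM in CAD-KO2+IR and at 222, 230.1 and 423 CPM in sgVec+IR. Its group means were close, with a log2 fold change of 0.02, because sgVec+IR replicate 3 was the highest library of all. Without that library the log2 fold change was 0.39 (unadjusted p = 0.0299, edgeR), and without both low-GC libraries it was 0.27. Of the 5 peroxiredoxins, which use thioredoxin or glutathione to reduce peroxides, PRDX1 was higher (0.12) and the other 4 lower (−0.28 to −0.10), none with an unadjusted p under 0.3. PRDX3 reached 794 CPM in sgVec+IR replicate 3, against 344 to 509 CPM in the other libraries, and PRDX5 was at 26.1 CPM there, against 63.0 to 177 CPM.

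**Figure D2:**
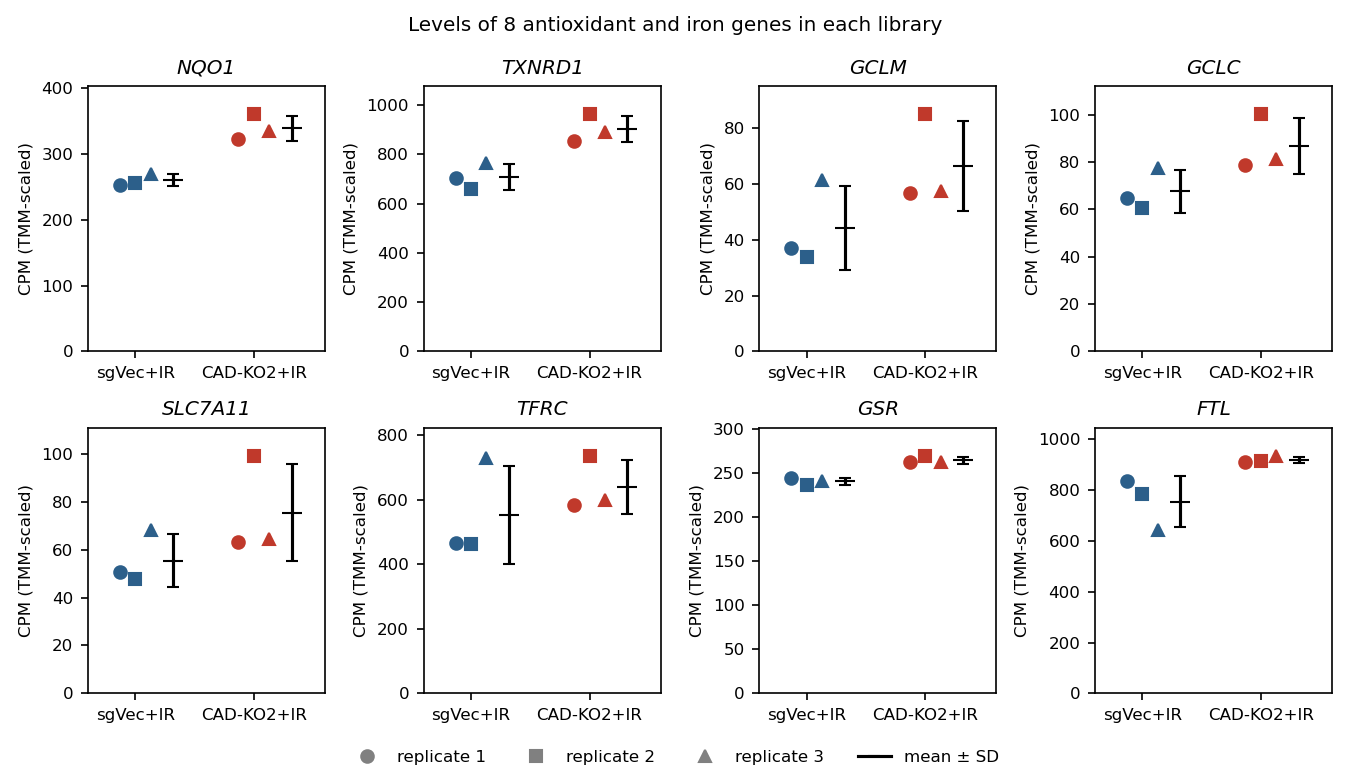
TMM-scaled CPM of 8 genes in each library, with the mean and SD of each group (n = 3); symbols mark the replicate. NQO1, TXNRD1, GCLC, GSR and FTL do not overlap between groups, while in GCLM, SLC7A11 and TFRC sgVec+IR replicate 3 (triangle) reaches into the range of CAD-KO2+IR.

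Superoxide dismutases and catalase had fold changes close to 0. CAT, which breaks down hydrogen peroxide, was at 45.7, 49.3 and 47.2 CPM in CAD-KO2+IR and at 44.9, 47.0 and 46.8 CPM in sgVec+IR. The groups overlapped, with a log2 fold change of 0.04 (95% interval −0.33 to 0.40, adjusted p = 1.0, edgeR). SOD1 and SOD2, the cytosolic and mitochondrial enzymes that convert superoxide to hydrogen peroxide, had log2 fold changes of −0.01 and −0.02.

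Of the genes that supply NADPH, 1 of 4 was higher and none had an unadjusted p under 0.6. TALDO1, a transaldolase of the pentose phosphate pathway, was at 183, 154 and 185 CPM in CAD-KO2+IR and at 197, 193 and 164 CPM in sgVec+IR, with overlapping groups and a log2 fold change of −0.09 (adjusted p = 1.0, edgeR). TKT and PGD, enzymes of the same pathway, and ME1 had log2 fold changes of 0.07, −0.01 and −0.04. ME1, the cytosolic malic enzyme, like TXN, was highest in sgVec+IR replicate 3, at 235 CPM against 111 and 117 CPM in the other sgVec+IR libraries and 131, 185 and 134 CPM in CAD-KO2+IR.

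In edgeR with all 6 libraries, all 4 genes of iron handling had fold changes above 0. They ran from 0.05 (NCOA4, which delivers ferritin to autophagy) to 0.47 (FTH1). In other fits the signs of NCOA4 and FTH1 turned. NCOA4 was at −0.07 without CAD-KO2+IR replicate 2 and at −0.0028 with 2 libraries per group and GC correction. FTH1 was at −0.04 with sample weights. FTL, the ferritin light chain, was at 911, 915 and 933 CPM in CAD-KO2+IR and at 835, 787 and 643 CPM in sgVec+IR. The groups did not overlap, and the log2 fold change was 0.28 (standard error 0.139, unadjusted p = 0.0799, adjusted p = 1.0, edgeR). It was 0.18 without sgVec+IR replicate 3, the lowest library, and over the 20 alternative fits its adjusted p ran from 1.11e-05 to 1.0. With GC correction FTL was at 804, 1086 and 861 CPM against 712, 660 and 929 CPM, so that the groups overlapped, with a log2 fold change of 0.26 (unadjusted p = 0.144, edgeR). FTH1, the ferritin heavy chain, was at 196, 111 and 122 CPM in CAD-KO2+IR and at 135, 145 and 29.4 CPM in sgVec+IR. The groups overlapped, and the log2 fold change of 0.47 was 0.03 without sgVec+IR replicate 3. FTH1 shares 30.8% of its transcript with 12 other genes, mainly processed pseudogenes, and FTL 9.45%. TFRC, the transferrin receptor that brings iron into the cell, was at 585, 735 and 600.2 CPM in CAD-KO2+IR and at 467, 463 and 730.1 CPM in sgVec+IR. The groups overlapped through sgVec+IR replicate 3, with a log2 fold change of 0.21 (unadjusted p = 0.366, edgeR). With GC correction TFRC was at 646, 631 and 635 CPM against 526, 529 and 565 CPM, without overlap and with a log2 fold change of 0.24 (unadjusted p = 0.00703, adjusted p = 0.295), and its adjusted p over the alternatives ran from 1.14e-06 to 1.0.

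The genes for ferroptosis lipids and the ferroptosis guard AIFM2 had overlapping groups and fold changes whose intervals include 0. ACSL4, which loads polyunsaturated fatty acids into the lipids that are peroxidized, was at 115, 167 and 124 CPM in CAD-KO2+IR and at 119.9, 114 and 214 CPM in sgVec+IR. Its log2 fold change was −0.14 (95% interval −0.82 to 0.55, adjusted p = 1.0, edgeR). With GC correction ACSL4 was at 134, 136 and 133 CPM in CAD-KO2+IR and at 144, 140.1 and 144 CPM in sgVec+IR, and these groups did not overlap, at an unadjusted p of 0.221 in edgeR. AIFM2, also known as FSP1, which regenerates reduced coenzyme Q, was at 82.3, 55.8 and 75.5 CPM in CAD-KO2+IR and at 83.9, 82.8 and 37.6 CPM in sgVec+IR. Its log2 fold change was 0.06 (95% interval −0.72 to 0.85, adjusted p = 1.0, edgeR). In both genes the low-GC library was the extreme of its group. LPCAT3, which builds such fatty acids into phospholipids, had a log2 fold change of −0.12.

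Levels of different genes were compared per exon length, as RPKM computed from the CPM. In sgVec+IR, FTL had the highest mean, 860 RPKM, followed by PRDX1 (300.4), TXN (255), PRDX3 (146), PRDX5 (139), PRDX6 (126), SOD1 (123), GPX4 (106), TXNRD1 (106) and NQO1 (79.9). AKR1C1 was at 0.0615 RPKM. The order after TXN depends on the length used, since with the longest transcript GPX4 was at 180.1 and TXNRD1 at 166 RPKM. It also rests on sgVec+IR replicate 3, without which PRDX3 was at 103 and PRDX5 at 193 RPKM, a choice made after seeing the data. SOD2 has an identifier that release 29 of the GENCODE annotation does not list and was given no length.

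Part of the spread within the groups followed GC content. In sgVec+IR replicate 3, 16 of 18 genes with a GC content over 50% lay below the other libraries of the group, with a median log2 difference of −0.74, and 17 of 19 with a lower GC content lay above them, with a median of 0.61. In CAD-KO2+IR replicate 2 the medians were −0.44 (16 of 18 below) and 0.32 (18 of 19 above). Over the 37 tested genes with a known GC content, Pearson's r between GC content and this difference was −0.50 and −0.66, against −0.61 and −0.76 over 12918 genes. The points of each r share 1 library and are not independent. The extremes in sgVec+IR replicate 3 were SRXN1 (−4.83) and PRDX3 (1.17), whereas NQO1 (0.08), CAT (0.03) and GSR (0.01) hardly differed. AKR1B10 (−4.44) and AKR1C1 (−2.95), with GC contents of 47.5% and 42.4% and no count there, went against the trend.

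Most fits that correct for GC content, or weight down or leave out low-GC libraries, called more of the genes, mostly those already named. All of them use the same libraries and are not independent of each other. With GC correction, 6 of 38 had an unadjusted p under 0.05 and were higher (15.8%, against 4.87% of all genes tested), and 0 were lower (against 5.06%). On GC-corrected CPM, 8 of 38 did not overlap and were higher, namely NQO1, OSGIN1, SLC7A11, GCLC, GCLM, GSR, TXNRD1 and TFRC (21.1%, against 11.1% of all genes tested), and 1, ACSL4, was lower (2.63%, against 9.95%). FTL, which did not overlap on CPM as scaled, overlapped here. Without sgVec+IR replicate 3, 7 of 38 had an unadjusted p under 0.05 and were higher (18.4%, against 5.18%), and 0 were lower (against 6.67%). The 7 were NQO1, SLC7A11, GCLC, GCLM, TXN, TXNRD1 and TFRC, none with an adjusted p under 0.05 in edgeR. This fit kept CAD-KO2+IR replicate 2, and the 7 genes had GC contents of 35.4% to 46.0%. Their log2 fold changes were smaller without both low-GC libraries (for GCLM 0.69 in place of 0.90). Without CAD-KO2+IR replicate 2 alone, 0 of 39 had an unadjusted p under 0.05 (against 1.65%). What GC content contributed to these calls was not tested. With limma-voom and sample weights, in which sgVec+IR replicate 3 was weighted 0.0404 and CAD-KO2+IR replicate 2 0.154, 9 genes had an adjusted p under 0.05 and were higher (23.7%, against 10.5%): NQO1, SLC7A11, GCLC, GCLM, TXN, TXNRD1, ME1, FTL and TFRC. Another 4 were lower (10.5%, against 11.8%), HMOX1 (log2 fold change −0.31), GPX4 (−0.22), PRDX5 (−0.37) and PGD (−0.21). GCLM (0.69, adjusted p = 0.000241, limma) was the only DEG of the list there, in a fit that called 5.15% of all genes tested.

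With both low-GC libraries left out, edgeR called the same 9 genes higher at an adjusted p under 0.05 (23.7%, against 7.99% of all genes tested) and PRDX5 and PGD lower (5.26%, against 8.25%). The log2 fold changes were 0.69 for GCLM, 0.38 for SLC7A11, 0.37 for NQO1, 0.36 for GCLC, 0.36 for TXNRD1, 0.35 for TFRC, 0.27 for TXN, 0.22 for ME1 and 0.19 for FTL. The adjusted p was the smallest for GCLM (5.21e-08). GC content still moved with the difference between these 4 libraries, with r = −0.62 over the 37 genes and −0.31 over 12918 genes, and its part in the calls was not tested in that fit. With GC correction added, 8 of the 9 kept an adjusted p under 0.05 and were higher (21.1%, against 8.18%), ME1 being the exception, and only PGD was lower (2.63%, against 7.55%). GCLM was then 0.56 higher on the log2 scale (standard error 0.0775, edgeR, adjusted p = 1.67e-06), under the 1.5-fold threshold. TXNRD1 was 0.32 higher, NQO1 0.34 and SLC7A11 0.23. With 2 libraries in each group, these p-values rest on the likeness of 2 pairs.

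A further 87 genes of these pathways were listed, among them NRF2 partners, glutathione transferases, other NADPH enzymes, iron regulators and lipoxygenases. Of these, 86 were in the table and 75 were tested, 25 higher and 50 lower, with a median log2 fold change of −0.05. No one of them was a DEG in edgeR or DESeq2. At an unadjusted p under 0.05 in edgeR, 0 were higher (against 1.08% of all genes tested) and 4 were lower (5.33%, against 1.76%). The CPM of the groups did not overlap in 2 that were higher (2.67%, against 5.23%), PIR and CS, named after their values were seen, and in 8 that were lower (10.7%, against 5.01%). SCD, the desaturase that makes monounsaturated fatty acids, was at 851, 928 and 847 CPM in CAD-KO2+IR and at 1043, 1049.8 and 1097 CPM in sgVec+IR. The groups did not overlap, and the log2 fold change was −0.28 (unadjusted p = 0.0427, edgeR). SAT1, a polyamine acetyltransferase, had a log2 fold change of −0.51 (unadjusted p = 0.0482, edgeR). GSTA4, a glutathione transferase for lipid aldehydes, had a log2 fold change of −1.01 at a mean of 1.15 against 2.33 CPM, and ALOX15, a lipoxygenase, one of −2.84 on 1, 4 and 9 counts against 26, 15 and 43. With limma-voom and sample weights, the DEGs of this list were GSTA4, ALOX15 and ALOX12B, 3 of 75 (4%, against 5.15% of all genes tested).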

How the data were processed

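RNA was measured in 6 HCT116 libraries, 3 in each group. The authors cleaned reads with fastp, counted them per gene with featureCounts and deposited raw read counts. The aligner, annotation and strand setting are not given in the sources used here. The labels list the build mm10 although the gene identifiers are human, and they list genomic DNA although the protocol describes RNA. Dose, time and guide come from the paper.

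From the counts, genes were kept by filterByExpr (minimum count 10, minimum total 15), scaled by TMM and compared with edgeR's quasi-likelihood test (edgeR 4.0.16, legacy set to FALSE) and Benjamini-Hochberg adjusted p-values over all genes tested. R 4.3.3, limma 3.58.1, DESeq2 1.42.0 and Python 3.11.15 were used. DEG thresholds follow the paper's methods. GC content, exon length and position came from GENCODE 29 on GRCh38, which held 19837 of the 20020 genes. The human build used for counting is not given in the sources used here, so gene identities alone link the annotation to the counts. GC correction removed each library's lowess trend (span 0.3) as offsets. Log2 CPM used a prior count of 2. Alternatives changed the normalization, filter, tool, quasi-likelihood method, replicate block and GC correction, and left out each library in turn. The fits without both low-GC libraries, the GC correction with the block and the overlap on GC-corrected CPM were chosen after seeing the data. The scripts were tested on simulated data.

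The genes and lists were chosen with earlier results of these data known. Values in every library are given for 8 genes chosen by name (NFE2L2, KEAP1, SLC7A11, GPX4, NQO1, HMOX1, TFRC and AIFM2), for DEGs in edgeR, DESeq2, voom with weights or a fit without 1 library, for genes with an unadjusted p under 0.05, for the largest change of each role and for groups that do not overlap. TXN, ME1, PRDX3, PRDX5 and PGD were named after their values were seen. Of further pathway genes, up to 5 were named by the same calls. One result of that list is not reported here. Depth was 14032994 to 19574144 counts per library. A count of 0 allows up to 3 counts, 0.158 to 0.212 CPM. These limits cover counting error only, since reads without molecular identifiers can be copies of one molecule. The spans of NFE2L2, KEAP1, NQO1, SLC7A11, GCLC, TXNRD1, ME1, FTH1, TFRC, ACSL4 and AIFM2 overlap other annotated genes, such as SLC7A11-AS1. So do those of SRXN1, OSGIN1, AKR1C2, AKR1C3, GPX2, GPX8, PRDX1, PRDX2, SOD1 and LPCAT3. Without a stated strand setting, reads of such overlapping genes cannot be told apart.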

Additional observations from a re-analysis of the deposited data

How the results depend on the processing

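Of 24 genes followed over 20 alternatives, 10 never changed sign: DFFB, NQO1, TXNRD1, GCLM, GCLC, SLC7A11, TFRC, GSR, FTL and AKR1C1. The 24 were DFFB, the 19 genes set by rule, and TXN, ME1, PGD and PRDX5. Of the tested genes not followed, PRDX1 was higher in every alternative (log2 fold change 0.055 to 0.18). AKR1C3 (−0.50 to −0.0017), PRDX2 (−0.35 to −0.0051) and LPCAT3 (−0.16 to −0.0295) were lower in every one. The median of the list lay between −0.01 and 0.12, and 18 to 26 of its genes were higher.

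DEGs over all genes numbered 4 in edgeR, 47 in DESeq2, 0 in limma-voom, 666 with sample weights, 42 with GC correction, 440 and 369 with 2 libraries per group without and with GC correction, 282 at an unadjusted p, and 0 to 22 when 1 library was left out. Genes of the list called DEG numbered 1 with sample weights, with GC correction and with 2 libraries per group. Genes of the list with an unadjusted p under 0.05 numbered 2 in edgeR, 20 with sample weights, 6 with GC correction, 18 and 17 with 2 libraries per group, and 0 to 7 when 1 library was left out (7 without sgVec+IR replicate 3). Such genes were 2.85%, 37.1%, 9.93%, 29.7% and 28.2% of all genes tested in these first 5 fits and 11.9% without sgVec+IR replicate 3. In the further pathway list the 4 became 2 in limma-voom and in the legacy fit, 33 with sample weights, 10 with GC correction, 27 and 28 with 2 libraries per group, and 1 to 9 when 1 library was left out (9 without sgVec+IR replicate 3). Of the 10 with GC correction, 2 were higher (2.67%, against 4.87% of all genes tested) and 8 lower (10.7%, against 5.06%). On GC-corrected CPM 9 genes of the list did not overlap in place of 5 (23.7% and 13.2%, against 21.0% and 10.2% of all genes tested), without FTL, one of the 5. DFFB passed the threshold in DESeq2 (−1.02), with sample weights (−0.92) and with 2 libraries per group (−0.996, with GC correction −0.96).

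Same-numbered libraries did not all deviate together from their group means (correlations 0.468, −0.545 and −0.379). The low-GC libraries, CAD-KO2+IR replicate 2 and sgVec+IR replicate 3, did (0.552). With 1 such library in each group, this check cannot decide whether the numbers pair the libraries. With the replicate number as a block, DEGs numbered 0, genes of the list with an unadjusted p under 0.05 numbered 0 (6 with GC correction as well) and further pathway genes 1. Among the genes followed, the signs of NFE2L2 (0.0104), PRDX5 (0.16, with GC correction 0.17), PGD (0.0173) and ME1 (0.0321, with GC correction 0.0352) turned.

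Among the 24 genes followed, other signs turned as well, some at small fold changes and some not, the cause of which was not tested. With sample weights they were NFE2L2 (0.18), KEAP1 (−0.16), ME1 (0.23), FTH1 (−0.0399), ACSL4 (0.0662) and AIFM2 (−0.12). With 2 libraries per group they were NFE2L2 (0.15), KEAP1 (−0.10), ME1 (0.22), ACSL4 (0.0394) and AIFM2 (−0.0736), and with GC correction added NFE2L2 (0.11), GPX1 (0.0769), CAT (−0.0167), TALDO1 (0.0056) and ME1 (0.12). In limma-voom they were NFE2L2 (0.0151), PRDX5 (0.22), PGD (0.0159) and ME1 (0.0352), with GC correction PRDX5 (0.0504) and ME1 (0.0255), with upper quartile scaling KEAP1 (−0.0043), with library size alone KEAP1 (−0.0173) and TXN (−0.0090), and without the filter PGD (0.00022). Leaving out 1 library gave NFE2L2 −0.21 to 0.32, KEAP1 −0.22 to 0.16, HMOX1 −0.39 to 0.0751, GPX1 −0.78 to 0.19, GPX4 −0.27 to 0.0145, TXN −0.14 to 0.39, PRDX5 −0.57 to 0.26, PGD −0.19 to 0.11, ME1 −0.23 to 0.40, ACSL4 −0.32 to 0.22 and AIFM2 −0.23 to 0.24. Signs of genes not followed turned too. For sample weights these were SRXN1 (−0.38), AKR1B10 (−0.22), TKT (−0.12), GPX8 (0.22), PRDX3 (0.0641), PRDX6 (0.0150) and SOD2 (0.13). Their turns in the other fits are not listed in this section. Depth limits AKR1C1, AKR1C2, AKR1C3, SRXN1, AKR1B10 and GPX2, which had under 100 counts in every library.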
